A study of Mus musculus with 12 samples.

Results

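Metallothioneins are small, cysteine-rich proteins that bind zinc, copper and cadmium in the cytosol. Their genes are switched on by MTF-1, a zinc finger transcription factor that senses free zinc and binds metal response elements in promoters, and also by glucocorticoids and by other stresses. The mRNA levels of 4 genes of this system were followed in mouse splenic B cells: Mt1 and Mt2, the metallothioneins that most tissues use, Mtf1, which encodes the metal sensor, and Slc30a1, which encodes the zinc exporter ZnT1 and is a classical target of MTF-1. They were the genes of these 4 names among 29486 genes in the deposited table of normalised counts. They were selected on their measured levels, Mt2 for being far higher when KU55933, an inhibitor of the DNA damage kinase ATM, was present, so the levels below describe that choice and do not test it. Zinc itself was not measured.

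The B cells came from spleens of C57BL/6Babr mice, and all of them were activated with LPS (10 μg/ml), a bacterial lipopolysaccharide that drives B cells to divide. Cells of the first condition received LPS alone for 48 h. Those of the second received LPS for 48 h and then etoposide (20 μM), a topoisomerase II poison that breaks DNA, for 4 h. Those of the third received LPS for 47 h, KU55933 (10 μM) for 1 h, and then etoposide for 4 h. No cells received KU55933 without etoposide, and it is not stated in the labels if the LPS cells were cultured 4 h longer to match. Poly(A) RNA was sequenced from 4 replicates per condition. Each condition has its own Illumina indexes, so that index and condition cannot be told apart.

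The 4 deposited columns of a condition were multiples of one another, and over all genes their log2 ratio strayed from a constant by 1.4e-14 at most. Each gene therefore has 1 fitted value per condition, and the columns hold no spread between replicates and allow no test between conditions. The only error that could be given is a 95% counting interval, which treats the fitted values as reads and is a lower limit. The column totals, which stand for depth, ranged from 20.4 to 30.6, in units of 1000000 counts. A level is given as a scaled count, that is the fitted value divided by the size factor of the column. A gene is called higher or lower when its level differs by at least 1.5-fold on the log2(scaled count + 1) scale (a difference of 0.58), among 15579 genes with at least 10 scaled counts in at least 4 columns. All 4 members passed this filter.

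Mt2 (ENSMUSG00000031762) lies on chromosome 8 at 94172664 to 94173568 of GRCm38, on the forward strand. Mt1 (ENSMUSG00000031765) follows it on the same strand at 94179082 to 94180327. By their RefSeq coordinates, which differ from the GENCODE ones given here, the 2 genes have 5.32 kb between them. Mtf1 (ENSMUSG00000028890) spans 124802104 to 124849800 of chromosome 4, and Slc30a1 (ENSMUSG00000037434) spans 191906767 to 191913247 of chromosome 1, both on the forward strand. The stretch of 250 bases before the start of Mt2 in the RefSeq table (GRCm38.p6, chr8:94172368-94172617, forward strand) is shown because Mt2 had the largest difference of the 4 genes and because its promoter held the most matches to the core of the metal response element. The core was searched as TGCACNC and as TGCGCNC on both strands, and the capitals mark the matches.
Mt2, 250 bases before the start: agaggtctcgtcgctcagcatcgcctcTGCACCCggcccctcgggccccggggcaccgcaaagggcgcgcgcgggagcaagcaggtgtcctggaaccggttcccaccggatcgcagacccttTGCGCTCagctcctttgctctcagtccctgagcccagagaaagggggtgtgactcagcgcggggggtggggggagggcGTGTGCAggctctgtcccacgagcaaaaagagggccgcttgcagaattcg

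This stretch held 3 matches, 223, 128 and 50 bases before the start, the last one on the reverse strand. The same length of sequence held 1 match before Mt1, 1 before Slc30a1 and 0 before Mtf1. Over 32851 mouse promoters of the same table, 21.4% held at least 1 match in the 250 bases before the start, 5.17% at least 2 and 1.26% at least 3. Within these 250 bases a single match, as in Mt1 and Slc30a1, is thus common, while few promoters held as many as that of Mt2. The counts of Mt1 and Slc30a1 depend on where the window ends. Further matches lay 2 and 20 bases after the RefSeq start of Mt1 and 30 bases after that of Slc30a1. The matches of Mt1 and Slc30a1 are shown with 10 bases on either side for comparison with those of Mt2.
Mt1, 23 bases before the start (chr8:94179056-94179082, forward strand): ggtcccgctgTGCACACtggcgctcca
Slc30a1, 43 bases before the start (chr1:191906728-191906754, match on the reverse strand): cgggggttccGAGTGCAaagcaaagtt

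Further matches lay in the 50 bases after the RefSeq start in the same windows, 1 in Mt2, 2 in Mt1, 1 in Slc30a1 and 0 in Mtf1. They brought the counts to 4, 3, 2 and 0 over the whole 300 bases, for which 0.517% of all promoters held at least 4 and 1.97% at least 3. The RefSeq starts differ from the gene starts of GENCODE given above. That of Mt2 is at 94172618, before the GENCODE start, so that its further match lies before the gene as GENCODE annotates it. The starts of Mt1 (94179089), Slc30a1 (191906781) and Mtf1 (124802549) lie after those of GENCODE, and the window of Mtf1 lies wholly inside the GENCODE gene, so that bases before the earlier start were not searched. A match to these letters is a description of the sequence and was not tested for binding.

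**Figure D1:**
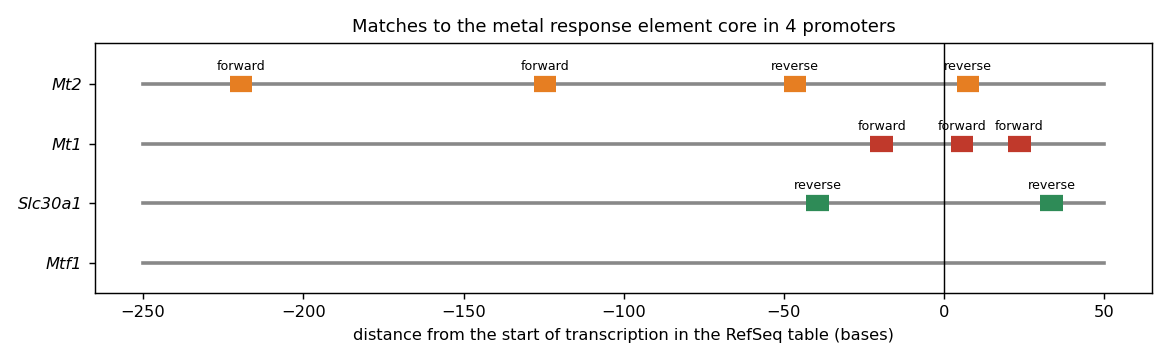
Position of each match to the core of the metal response element in the windows of Mt2, Mt1, Slc30a1 and Mtf1, as the distance in bases from the start of transcription in the RefSeq table, with the orientation written above each match. Mt2 has 3 matches before the start, Mt1 and Slc30a1 have 1 each and Mtf1 has 0.

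The metallothioneins were far higher when KU55933 was given with etoposide than in the other conditions. Mt2 stood at 64.8 scaled counts with LPS, at 49.9 with LPS and etoposide, and at 328 with LPS, KU55933 and etoposide. Its deposited values were 51.1, 56.6, 58.9 and 53.1 in the 4 LPS columns, 49.7, 55.8, 67.5 and 54.1 in the 4 etoposide columns, and 299, 337, 361 and 367 in the 4 columns with KU55933. The columns with KU55933 lie above all others, and differences among the columns of a condition are those of their size factors alone. The level with KU55933 and etoposide was 6.57 times that with etoposide (95% counting interval 5.71 to 7.60), or 2.69 on the log2 scale. By this difference Mt2 ranked at position 6 from the highest of 15579 genes. Its summed fitted counts were 220, 227 and 1365 in the 3 conditions, and these small totals set the width of the interval.

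Mt1 was also highest with KU55933 and etoposide, at a smaller ratio. It stood at 121.9 scaled counts with LPS and at 129.1 with etoposide, against 475 once KU55933 was added. Its deposited values were 96.1, 106.6, 110.9 and 99.95 in the LPS columns, 128.6, 144.1, 174.5 and 139.7 in the etoposide columns, and 433, 488, 523 and 531 with KU55933, again with the columns with KU55933 above all others. The level with KU55933 and etoposide was 3.68 times that with etoposide (3.35 to 4.04), or 1.87 on the log2 scale, at position 33 of 15579. The counting intervals of the Mt1 and Mt2 ratios do not overlap. They do not allow for the choice of Mt2 by its high level with KU55933, so nothing is read from this. Whether the 2 ratios differ beyond the spread of replicates cannot be seen in fitted values.

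Slc30a1 and Mtf1 did not reach the threshold in this comparison. The level of Slc30a1 was 724 scaled counts with KU55933 and etoposide against 536 with etoposide, a ratio of 1.35 (1.28 to 1.43) or 0.43 on the log2 scale. That of Mtf1 was 1437 against 1408, a ratio of 1.02 (0.985 to 1.06), an interval that includes 1. The sign of the Mtf1 difference depends on the scaling of the columns, its log2 value lying between -0.01 and 0.04 over the alternatives. KU55933 with etoposide was therefore accompanied by higher metallothionein mRNA without a difference beyond counting error in the mRNA of the metal sensor. The 2 members called higher against etoposide, Mt1 and Mt2, belong to a choice made on this contrast, in which 7.86% of all genes tested were called higher and 10.9% lower, and nothing is read from their count.

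**Figure D2:**
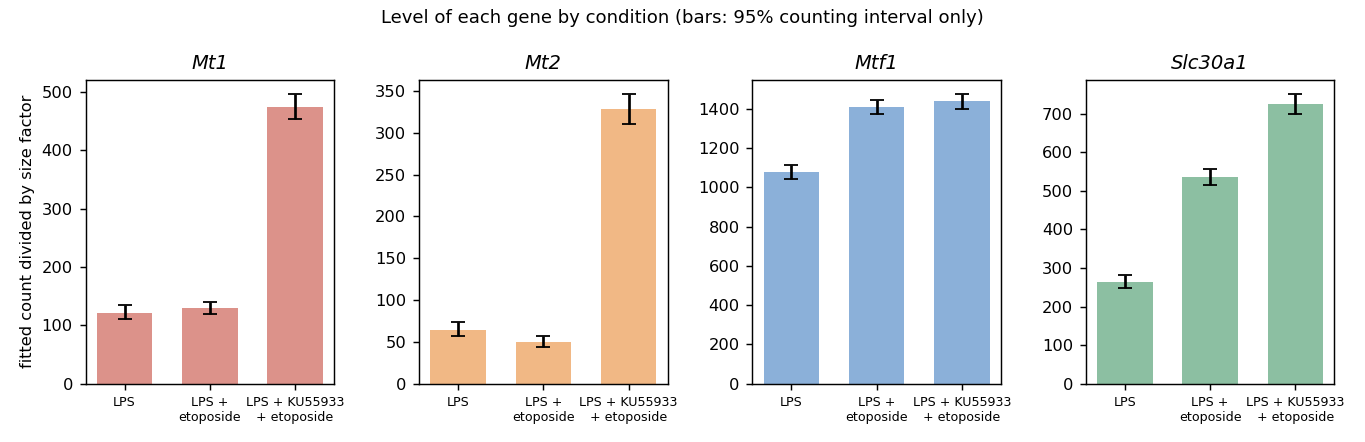
Level of Mt1, Mt2, Mtf1 and Slc30a1 in the 3 conditions, as the fitted count divided by the size factor, with a linear axis from 0 in each panel. Error bars are 95% counting intervals, a lower limit of the error. The bars of Mt1 and Mt2 stand at 475 and 328 with KU55933 and etoposide against 129.1 and 49.9 with etoposide alone, while Mtf1 stands at 1437 and 1408.

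Etoposide alone gave another order of the members. Slc30a1 stood at 536 scaled counts with etoposide against 264 with LPS, a ratio of 2.03 (1.88 to 2.19) or 1.02 on the log2 scale. It was the 1 member of 4 called in this comparison, in which 19.7% of genes tested were called higher and 20.1% lower, so that 1 of 4 is near the background. Mtf1 stood at 1408 against 1077, a ratio of 1.31 (1.26 to 1.36) or 0.39 on the log2 scale, and was not called. Mt1 was at a ratio of 1.06 (0.931 to 1.203), within counting error, and the sign of its log2 difference depended on the scaling (-0.10 with quantile normalization, 0.30 with column totals). Mt2 was at a ratio of 0.771 (0.637 to 0.931) or -0.37 on the log2 scale, lower beyond counting error but inside the threshold.

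The choice of scaling bears more on the comparisons with LPS than on that between the etoposide conditions. Scaling by column totals moved the median difference of all genes by 0.22 in etoposide against LPS and by 0.23 in KU55933 with etoposide against LPS, but by 0.01 in KU55933 with etoposide against etoposide. The share of called genes that were higher was 49.4% in etoposide against LPS, and 67.7% with column totals. In KU55933 with etoposide against LPS it was 51.0% and 71.7%. With column totals Mtf1 passed the threshold in both comparisons with LPS, at 0.61 and 0.65 on the log2 scale, and with quantile normalization Mt2 passed it as lower with etoposide, at -0.67.

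Against LPS alone, cells with KU55933 and etoposide had higher levels of 3 of the 4 members, where 18.7% of genes tested were called higher and 18.0% lower. The ratio was 5.07 (4.39 to 5.86) for Mt2, 3.89 (3.496 to 4.33) for Mt1, 2.74 (2.54 to 2.96) for Slc30a1 and 1.33 (1.28 to 1.39) for Mtf1. The comparisons share samples and are not independent of each other. Set side by side, the difference from LPS was split over the 2 steps differently in the metallothioneins and in Slc30a1. Of the 460 scaled counts by which Slc30a1 was higher than with LPS, 272 lay between LPS and etoposide and 188 between etoposide and etoposide with KU55933. For Mt1, 7.13 of 353 scaled counts lay in the first step and 346 in the second. For Mt2 the first step was -14.8 scaled counts and the second 278. For Mtf1 the first step held 332 of 360 scaled counts.

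**Figure D3:**
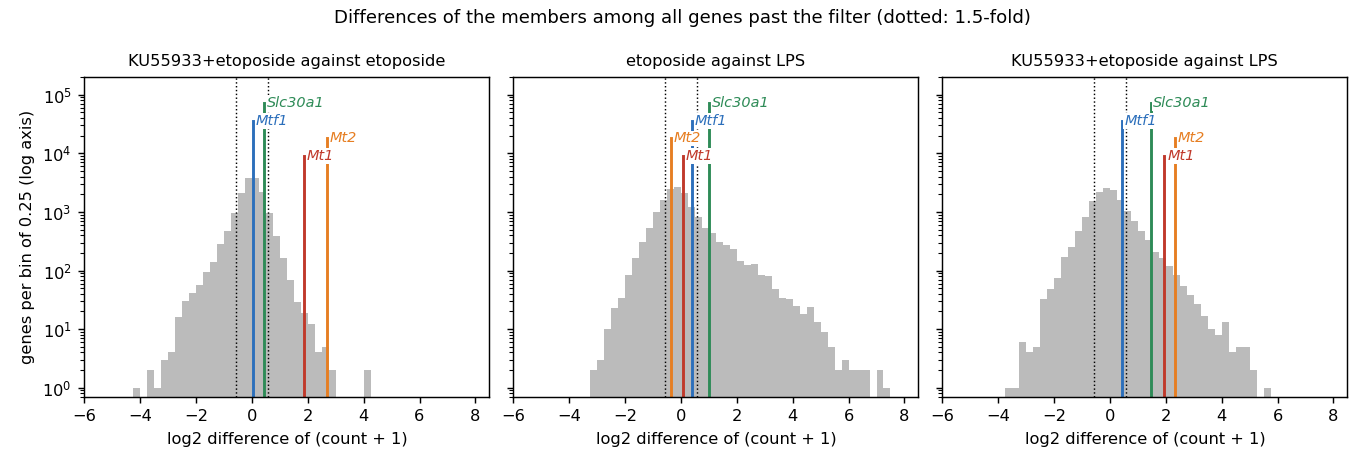
Histograms of the log2 difference of (scaled count + 1) of the 15579 genes past the filter in the 3 comparisons, in bins of 0.25 with a log axis for the number of genes, with coloured lines at the 4 members and dotted lines at 1.5-fold. Mt1 (1.87) and Mt2 (2.69) lie in the upper tail with KU55933 and etoposide against etoposide, and Slc30a1 (1.02) is the member past the threshold in etoposide against LPS.

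Per length of exon, the 4 genes were closest to each other in the conditions without KU55933. With LPS the levels were 50.3 scaled counts per kb for Slc30a1, 97.9 for Mt1, 110.1 for Mt2 and 120.9 for Mtf1. With etoposide they were 84.9 for Mt2, 102.2 for Slc30a1, 103.6 for Mt1 and 158.1 for Mtf1. With KU55933 and etoposide they were 138.1 for Slc30a1, 161.3 for Mtf1, 381 for Mt1 and 558 for Mt2. Among the genes past the filter that had an exonic length, Mt2 was at percentile 46.2 with LPS and 42.0 under etoposide, against 84.7 once KU55933 was added, and Mt1 at 44.1, 45.8 and 76.9. Mtf1 was at percentile 48.1 with LPS and 55.3 in both other conditions. The ratio of Mt1 to Mt2 per kb was 0.888 with LPS, 1.22 under etoposide and 0.683 once KU55933 was added. Which of the 2 genes is the higher on this scale depends on the lengths used, so nothing is read from their order. Without division by length, Mt1 was above Mt2 in all 3 conditions. The exonic lengths are unions over annotated transcripts (588 bases for Mt2 and 1246 for Mt1), not the lengths of the forms these cells use. The union of Mt1 covers its whole gene span, introns included, while that of Mt2 does not. A shorter length would raise the levels per kb and the percentiles of Mt1.

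Some reads of the members could belong to other genes. Mt2 shares 432 exonic bases with Gm45774, an annotated antisense RNA that is not among the rows used, Mtf1 shares 721 with 1110065P20Rik and Slc30a1 shares 468 with 1700034H15Rik, all on the opposite strand. The study's methods name a stranded library kit, but the strand setting of the counting is not given in the sources used here. 1110065P20Rik held between 18.9 and 39.9 scaled counts and 1700034H15Rik between 22.6 and 25.0, small beside the genes they overlap. The longest run of bases shared by Mt1 and Mt2 transcripts was 20, so that the reads of the 2 metallothioneins could be told apart. Mt2 also shares 1 short stretch with a processed transcript of Pip5k1a. That gene as a whole stood at 1447, 1604 and 1804 scaled counts in the 3 conditions, which does not measure reads of the shared stretch.

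The other metallothioneins were at the floor of the table. Mt3, known from brain, was at 0.667 scaled counts or less, and Mt4, known from squamous epithelium, at 0.0901 or less, so that neither passed the filter. Of the 8 genes listed as MTF-1 and its known targets, which include 4 of the members, all 8 passed. Of them, 2 were called higher and 1 lower with KU55933 and etoposide against etoposide. Of all genes tested, 7.86% were called higher and 10.9% lower. The 2 called higher were Mt1 and Mt2, which belong to the choice made on this contrast. The list median of 0.22 (-0.01 for all genes tested) includes the members, so nothing is read from it. The gene called lower was Slc39a10, a zinc importer that MTF-1 is known to repress, at 1652 scaled counts against 2556 (-0.63 on the log2 scale). Besides Mtf1 and Slc30a1, 3 genes were inside the threshold, at 0.31 for Sepw1, a selenoprotein, 0.13 for Ndrg1, a stress-responsive gene, and -0.08 for Gclc, the catalytic subunit of the enzyme that starts glutathione synthesis. With etoposide against LPS, 1 of the 8 was called higher (Slc30a1) and 0 lower, with a median of 0.09 against -0.11 for all genes. The shares of all genes tested were 19.7% higher and 20.1% lower. Slc39a10 was then at -0.07, Sepw1 at -0.04, Ndrg1 at 0.10 and Gclc at 0.32.

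Zinc transporters showed no common direction with KU55933. For this list and those below, 7.86% of all genes tested were called higher and 10.9% lower with KU55933 and etoposide against etoposide. With etoposide against LPS the shares were 19.7% and 20.1%. Of 10 zinc exporters 6 passed the filter, and 0 were called in either direction with KU55933 and etoposide against etoposide (median 0.28). The differences were 0.52 for Slc30a4, 0.43 for Slc30a1, 0.28 for Slc30a6 and -0.27 for Slc30a5, which load zinc into the secretory pathway or vesicles except for Slc30a1 at the cell surface. With etoposide against LPS, Slc30a1 was the 1 exporter called (median of the 6, -0.12), while Slc30a7 was at -0.45 and Slc30a4 at -0.34. Slc30a1 was thus the exporter with the largest difference under etoposide among the 6 that passed.

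Of 14 zinc importers 13 passed, and 1 was called higher and 3 lower with KU55933 and etoposide against etoposide (median -0.02). Slc39a14, an importer of zinc and iron, was at 1607 scaled counts against 3088 (-0.94), and Slc39a4, the intestinal importer, at 221 against 333 (-0.59). Slc39a3 was called higher at 576 against 380 (0.60). Under etoposide against LPS, 4 importers were called higher and 1 lower (median 0.13). Slc39a14 had the largest of these differences, at 3088 against 921 (1.74), followed by Slc39a2 at 1.07 and Slc39a13 at 0.89. Slc39a14 and Slc30a1, an importer and an exporter, were both higher with etoposide but lay on opposite sides of 0 with KU55933.

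**Figure D4:**
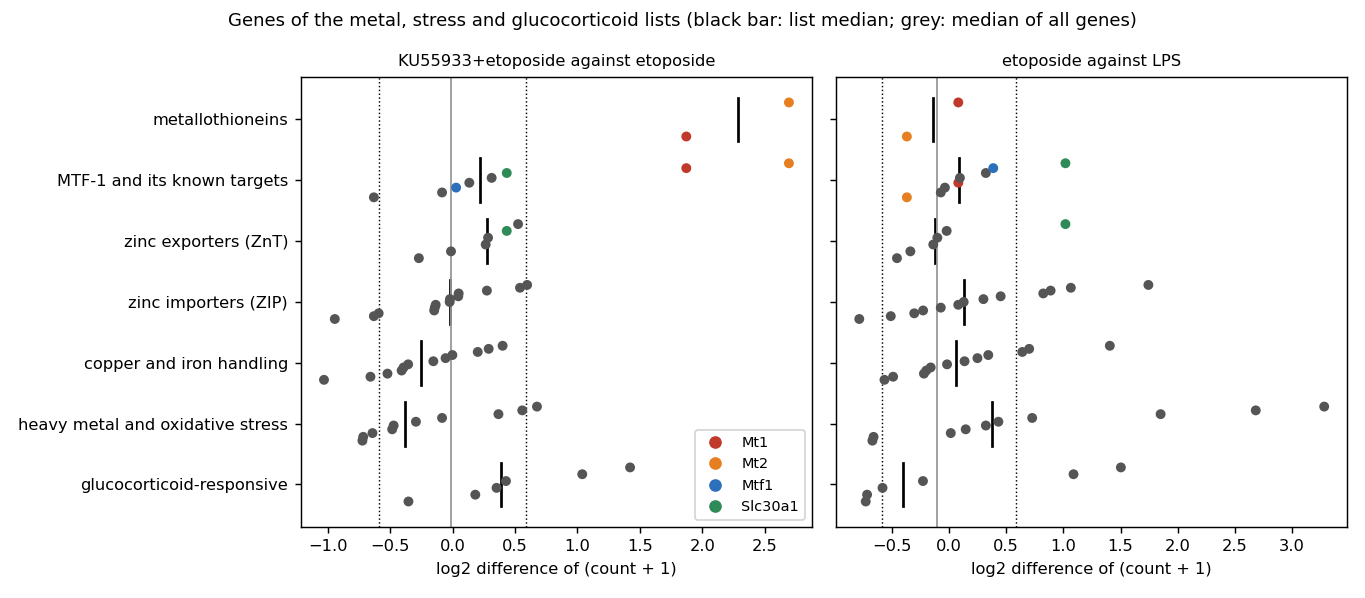
Log2 difference of (scaled count + 1) of each gene past the filter in the metal, stress and glucocorticoid lists, with the 4 members in colour, black bars at the list medians, a grey line at the median of all genes and dotted lines at 1.5-fold. With KU55933 and etoposide against etoposide, Mt1 is at 1.87, Mt2 at 2.69 and Tsc22d3 at 1.42. Mt1 and Mt2 belong to a choice made on this contrast, so nothing is read from their place.

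Genes for copper and iron and for the oxidative and heavy metal stress are described next. Mt1 and Mt2 belong to a choice made on the contrast with KU55933, so the size of their differences is not set against these lists. Of 13 copper and iron genes 12 passed, with 0 called higher and 2 lower with KU55933 and etoposide against etoposide (median -0.25). The shares of all genes tested were 7.86% and 10.9%. The 2 called lower were Ccs, the copper chaperone of superoxide dismutase (482 scaled counts against 985, -1.03), and Atp7b, a copper-transporting ATPase (-0.66). Slc31a2 and Atox1, also of copper transport, were at -0.52 and -0.41. In etoposide against LPS 3 were called higher and 0 lower, at 1.41 for Ccs, 0.70 for Atp7a and 0.64 for Atox1 (median 0.06).

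Of 11 stress genes 10 passed, with 1 called higher and 3 lower with KU55933 and etoposide (median -0.38). Hmox1, which degrades heme and is induced by cadmium, was at 382 scaled counts against 631 (-0.72). Nqo1, a quinone reductase, was at -0.71 and Txn1, thioredoxin, at -0.64, while Gclm, the regulatory partner of Gclc, was at 0.68. The comparison of etoposide with LPS had 4 called higher and 2 lower (median 0.38). The differences were 1.85 for Hmox1, 3.28 for Hspa1a and 2.68 for Hspa1b, the last pair being inducible heat shock genes of nearly identical sequence whose reads may be split between them.

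Among genes that respond to glucocorticoids, which also induce metallothioneins, 6 of 7 passed, with 2 called higher and 0 lower with KU55933 and etoposide against etoposide (median 0.39). Tsc22d3, which encodes the leucine zipper protein GILZ, was at 2428 scaled counts against 906 (1.42), and Klf9, a transcription factor, at 198 against 96.0 (1.04). Dusp1, a phosphatase of MAP kinases, was at 0.43, and Fkbp5, a chaperone of the glucocorticoid receptor, at -0.35. With etoposide against LPS, 2 were called higher and 2 lower (median -0.40), including Sgk1 at 1.503, Dusp1 at 1.09 and Fkbp5 at -0.73. Genes of this list were thus called in both directions with etoposide, where 19.7% of all genes tested were called higher and 20.1% lower.

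The genes around Mt1 and Mt2 did not share one direction. With KU55933 and etoposide against etoposide, Bbs2, a ciliary trafficking gene 73.2 kb before Mt2, was at 346 scaled counts against 179 (0.95). Nup93, a nuclear pore gene 34.2 kb after Mt1, was at -0.40. Slc12a3, which encodes the salt cotransporter of the kidney and lies 148.8 kb away, was at 12.9 against 30.9 (-1.198), and Herpud1, a gene of protein degradation at the endoplasmic reticulum 206.1 kb away, was at 0.57, just inside the threshold. Mt3 and Mt4, which lie between Bbs2 and Mt2, stayed under the filter. With etoposide against LPS the differences were 0.24 for Bbs2, -0.47 for Nup93, 1.198 for Slc12a3 and -0.79 for Herpud1.

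**Figure D5:**
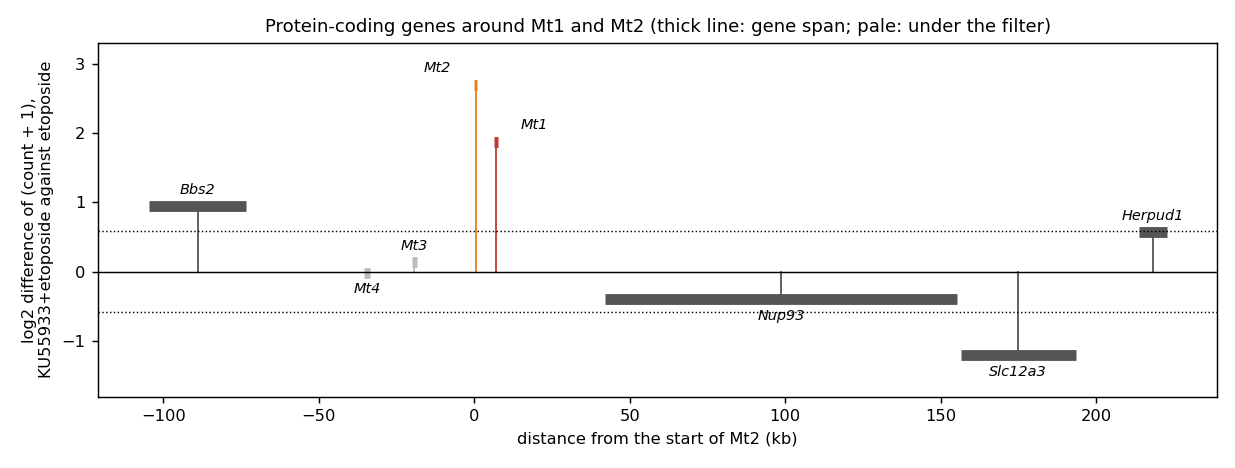
Log2 difference of (scaled count + 1) with KU55933 and etoposide against etoposide for the protein-coding genes around Mt1 and Mt2, by distance in kb from the start of Mt2. Thick lines are gene spans, pale ones are genes under the filter and dotted lines are at 1.5-fold. Mt2 (2.69), Mt1 (1.87) and Bbs2 (0.95) are above the upper dotted line, while Slc12a3 (-1.198) is below the lower one.

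The neighbours of Slc30a1 past the filter lay below their LPS level with etoposide, unlike Slc30a1. They were Nek2 (-1.56), Lpgat1 (-0.57) and Ints7 (-0.50) before it, and Traf5 (-1.63) and Rcor3 (-0.22) after it, with Rd3 under the filter. Only Nek2 and Traf5 were called lower, and the median of all genes was -0.11. Scaling by column totals moved that median by 0.22, as far as Rcor3 lay below 0. Beside Mtf1, Inpp5b was at -0.58, Sf3a3 at -0.39, Fhl3 at -1.09 and Yrdc at -0.43, while Maneal was at 0.52 with 10.4 scaled counts against 6.91, and Epha10 was under the filter. With KU55933 and etoposide against etoposide, the values beside Slc30a1 were -0.04 for Nek2, 0.01 for Lpgat1, 0.14 for Ints7, 0.60 for Traf5 and 0.37 for Rcor3. Those beside Mtf1 were 0.30 for Inpp5b, -0.13 for Sf3a3, 0.49 for Fhl3, 0.01 for Yrdc, 0.76 for Maneal and 1.04 for 1110065P20Rik.

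Profiles over the 3 conditions were compared by the Euclidean distance between log2(scaled count + 1) values less their mean, with 10875 other genes of a mean of at least 100 scaled counts. With 3 conditions a profile has few degrees of freedom, and likeness is a description of these means. The profile nearest to Mt2 was that of Ccl5, a chemokine (288, 218 and 1263 scaled counts in the order of conditions used above, at a distance of 0.15). Ifit1, an interferon-induced gene, B3gnt7, a glycosyltransferase, Steap4, a metalloreductase, and Mt1 came next, Mt1 at a distance of 0.58. The profile nearest to Mt1 was that of Dusp4, a phosphatase of MAP kinases (1252, 1290 and 4609, at 0.05), followed by Steap4 (224, 211 and 817, at 0.12), B3gnt7, Ifit1 and Neil1, a DNA glycosylase.

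Within a distance of 0.1 of each profile there were 0 genes for Mt2, 1 for Mt1, 7 for Slc30a1 and 197 for Mtf1. A fixed distance tends to hold fewer genes where the differences of a profile are large. Mt2 was chosen for a large difference, so nothing is read from these counts. Nearest to Slc30a1 were Ctsl, a lysosomal protease (152.9, 311 and 423, at 0.01), Dusp1 (271, 578 and 778, at 0.06), Gm11974, Gm5421 and R74862. Nearest to Mtf1 were Fech, the enzyme that inserts iron into heme, Rprd1a, Atn1 and Zfp39, at distances between 0.01 and 0.02.

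The labelled cell type was checked on its markers. All 6 B cell markers were abundant, with a summed level of 138581 scaled counts with LPS, against 71370 under etoposide and 82203 when KU55933 was added. All 6 were called lower with etoposide against LPS, with Cd22 at -2.58, Pax5 at -2.39 and Cd79b at -0.77. With KU55933 and etoposide against etoposide, Ms4a1 was called lower (-0.60), and Cd79b was at 0.39 and Cd22 at 0.27. In bulk RNA, fewer cells of a type and less RNA per cell cannot be told apart, and this holds for the members too.

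Markers of other cells were present to different degrees. The 5 T cell markers summed to 9.29 scaled counts or less and none passed the filter. The 8 macrophage markers, of which 6 passed, summed to 435, 460 and 431 scaled counts in the 3 conditions, against 187, 179 and 803 for Mt1 and Mt2 together. Most of this sum came from Itgam (229, 126 and 114) and Cd68 (108.5, 206 and 174), which did not share a direction. C1qa and C1qb were at 1.72 or less and Csf1r at 10.1 or less, while Cd14 was at 5.37, 23.6 and 40.4 (log2 difference 1.95 with etoposide and 0.75 with KU55933). The 4 neutrophil markers summed to 14.6 or less, and the 4 red blood cell markers to 218, 172 and 108. The part of these markers in the levels of the members was not tested.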

How the data were processed

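Trimmed reads (Trim Galore, cutadapt 1.2.1) were mapped by the authors to GRCm38 with TopHat2 2.0.12 and counted with HTSeq, and DESeq2 1.6.3 was fitted, per the labels and the study's methods. Libraries were made with an Illumina TruSeq mRNA kit, a stranded one by the study's methods. The deposited table holds a signal per gene and column, which is 1 fitted value per condition scaled to each column. None of its values equals 0 (0 of them), and the smallest is 0.0635. The deposited comparisons of the authors (fold changes and p-values) were not used.

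Python 3.11.15 was used with numpy 2.4.6, pandas 2.3.3, scipy 1.17.1 and matplotlib 3.10.9. Columns were divided by median-of-ratios size factors (0.788 to 0.910 with LPS, 0.996 to 1.35 with etoposide, 0.911 to 1.12 with KU55933 and etoposide). Differences are of log2(scaled count + 1), with the pseudocount of 1 understating those of low genes. Counting intervals are exact (Clopper-Pearson, 95%) on the summed columns. They and the depth cover counting error only, and replicates could not enter. The planned limma test was replaced by no test because columns of a condition are proportional. Functions were tested on simulated data. Exonic lengths are from GENCODE M21 (99.5% of genes tested), promoters and neighbours from RefSeq (GRCm38.p6), in which all 4 members matched. Protein sequences were not used here.

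The members and lists were chosen with earlier results of these data known. Named were the members, the metallothionein and MTF-1 lists, up to 4 genes of each other list by the size of the difference with KU55933 and etoposide against etoposide and up to 3 by that with etoposide against LPS, the 3 nearest protein-coding genes on each side, and the 5 nearest profiles. Some genes that this rule names are not reported here. Mt1, Mt2, Slc30a1, Slc39a10 and Gclc stand on 2 lists each. Alternatives were scaling by column totals, by a trimmed mean of log ratios (30% and 5%), by the upper quartile or by quantile normalization, pseudocounts of 0.5 and 5, a 2-fold threshold, other filters, each replicate left out and a looser motif. Scaling on genes with a mean of at least 100 and the 300-base window were added after the data were seen.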

Additional observations from a re-analysis of the deposited data

How the results depend on the processing

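With KU55933 and etoposide against etoposide, Mt1 and Mt2 stayed past 1.5-fold, and Slc30a1 and Mtf1 inside it, under all 7 other scalings and pseudocounts, with log2 differences from 1.83 to 1.92 for Mt1, from 2.60 to 2.79 for Mt2 and from 0.38 to 0.45 for Slc30a1. A threshold of 2-fold left the same counts of 2, 1 and 3 members in the 3 comparisons. In etoposide against LPS the count of members past 1.5-fold went from 1 to 2 with column totals, which added Mtf1, and to 2 with quantile normalization, which added Mt2 as lower. Slc30a1 lay between 1.01 and 1.24 there. Against LPS, Mtf1 made the count 4 with column totals.

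Leaving out 1 replicate column of 12 changed no count, which stayed at 2, 1 and 3. Since the columns are fitted means, this shows only how the size factors move and says nothing of replicate spread. No paired analysis was possible because the columns of a condition carry 1 fitted mean and no result comes from a test across replicates.

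The share of all genes past 1.5-fold was 18.7%, 39.8% and 36.7% in the order of the comparisons above, and without the filter 12.7%, 26.3% and 23.1%. With the looser core, in which any base may stand in the fourth place, the matches before the start of Mt2 were 5 and those of the other members were unchanged at 1, 1 and 0, while 44.4% of promoters held at least 1. Depth limits Mt2 most, with 220 summed counts with LPS.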

Other observations

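Some genes that B cells are not known for were low with LPS, higher with etoposide and lower again when KU55933 was also present, an order opposite to that of Mt1 and Mt2 in the second step. Mpo, the myeloperoxidase of neutrophils, was at 1.31 scaled counts with LPS and at 13.6 with etoposide, against 3.33 once KU55933 was added. Slc12a3, a neighbour of Mt1, was at 12.9, 30.9 and 12.9. The other neutrophil markers S100a8, S100a9 and Ly6g stayed at 0.446 or less. The globin genes Hbb-bs (63.1, 40.6 and 28.4) and Hbb-bt (152.4, 91.1 and 69.2), which are near-identical in sequence, were highest with LPS. These are values of 1 fitted mean per condition, with no test.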
